A study of Mus musculus with 26 samples.

Results

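The nuclear genes for the respiratory chain were examined in group 2 innate lymphoid cells (ILC2s) sorted from mouse lung. The set holds the protein-coding genes whose symbols begin with Nduf, Uqcr or Atp5, together with Sdha to Sdhd and Cox4 to Cox8, on any chromosome other than 16. It has 89 genes of the 21897 protein-coding genes counted. Complex I has 45 of them, complex II 4, complex III 8, complex IV 17 and complex V 15. Of the 89, 78 encode structural subunits, 8 are the complex I assembly factors Ndufaf1 to Ndufaf8, and 3 are related genes (Ndufa4l2, Cox7a2l and Atp5s). The rule left out 4 identifiers on chromosome 16 (Ndufb4, Atp5j and 2 for Atp5o) and Cox6b1, which lies in the chromosome 7 interval the study maps. The rule picks genes by symbol, type and position, and it was set with earlier results of these data known.

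The respiratory chain sits in the inner mitochondrial membrane. Complexes I and II pass electrons from NADH and succinate to ubiquinone, complex III hands them to cytochrome c, and complex IV reduces oxygen. Complexes I, III and IV pump protons, and complex V, the ATP synthase, uses the gradient to make ATP. Complex II is encoded wholly in the nucleus, whereas the other complexes mix nuclear subunits with a few from mitochondrial DNA. ILC2s are tissue-resident lymphocytes that make IL-5 and IL-13.

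RNA was sequenced in 26 libraries from female mice aged 8 to 16 weeks. Naive ILC2s came from C57BL/6J, the common inbred strain (3 libraries), and from CC030, a Collaborative Cross strain bred from several founder strains (3 libraries), sorted as lineage-negative CD90+ CD127+ CD25+ ICOS+ cells. ILC2s of 5 further CC030 mice, sorted with ST2 in place of CD25 and ICOS, were cultured in IL-2 at 100 U/mL plus IL-33 and TSLP, each at 10 ng/mL. Each mouse gave 4 libraries, with vehicle (DMSO) or with 10 µM AR420626, an agonist of the short-chain fatty acid receptor FFAR3, at day 2 and at day 6. All cultured cells, vehicle included, therefore received the same cytokines.

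Depth differed widely. Counts in genes totalled 13533363 to 15234305 in the C57BL/6J libraries and 1324595 to 1524751 in the naive CC030 libraries, and ranged from 227445 to 5320028 in culture. All 10 ILC2 markers (among them Gata3, Il7r and Il1rl1) had counts in each C57BL/6J library, with a summed level of 7800 to 9980 CPM (counts scaled to the same library total), against 264 to 286 CPM in naive CC030. The CC030 sum carries the limit on gene positions given below, so the difference cannot be read as a lower level of ILC2 genes. C57BL/6J replicate 3 stood apart: Sftpc, an alveolar epithelial gene, had 172153 counts there against 1 and 4 in replicates 1 and 2, and the macrophage and neutrophil list of 5 summed to 984 CPM against 0.148 and 11.7, nearly all of it from Lyz2 (14729 counts) with Cd68, while Marco, Adgre1 and S100a8 were at 0 in that library. The epithelial list of 4 genes summed to 11370 CPM in replicate 3 against 56.1 and 29.3, the B cell list of 4 to 83.9 against 9.98 and 29.5, and the endothelial list of 3 to 32.1 against 3.77 and 11.2. The T cell list of 4 was instead high in replicate 1, at 115 CPM against 9.99 and 3.81, with Cd3d at 1270, 57 and 23 counts. The NK and ILC1 markers were at 0 in all 3 libraries. The part of these other cells in the results below was not tested. In bulk libraries fewer cells of a type and less RNA per cell cannot be told apart.

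Respiratory chain genes were among the most abundant transcripts of naive C57BL/6J ILC2s. Levels are in TPM, counts per exon length scaled to the same total in each library, so that they can be compared between genes. The mean level exceeded 100 TPM for 63 of the 89 genes, against 4.85% of the 21897 protein-coding genes. Over the 3 libraries the median member was at 296, 279 and 221 TPM (265 ± 39.2, SD, n = 3), and the median member stood at the 98.0 percentile of protein-coding genes. Together they took 3.68, 3.72 and 2.08% of all gene counts (3.16% ± 0.936, SD, n = 3). Replicate 3 was the low library in both measures, and without it the share was 3.70%. For 82 genes every library had 10 counts or more, while 3 had no count in any library (Cox7b2, Cox8b and Cox8c).

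By complex, the median gene of complex III was highest, at 634 TPM ± 193 (SD, n = 3), followed by complex V (305 ± 29.8), complex II (302 ± 5.78), complex I (237 ± 59.1) and complex IV (169 ± 1.33). The medians of complexes II and V differed by less than the spread between libraries. Without replicate 3 the order from the top was complex III (745 TPM), complex V (308), complex II (300), complex I (271) and complex IV (170). The low median of complex IV includes its tissue isoforms: over the 11 members with at least 10 counts in each library it was 424 TPM. That minimum put complex IV above complexes V (305), II (302) and I (244). Over the 36 structural subunits of complex I, without assembly factors, the median was 325 TPM. In replicates 1 and 2 the median gene of complex IV was Cox7a2l (171 and 169 TPM), a related gene. Over its 16 structural subunits complex IV was at 178 TPM ± 60.2 (SD, n = 3), a far wider spread. Members with longer transcripts had lower levels, with a Spearman correlation of -0.48 between level and longest transcript over the 86 genes with a count. Level is itself divided by exon length, which can give such a correlation on its own. Mean counts had a correlation of 0.017 with exonic length over the 89 genes, and the part of the division was not tested. Genes are not independent replicates, and these share libraries and cDNA preparation.

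**Figure D1:**
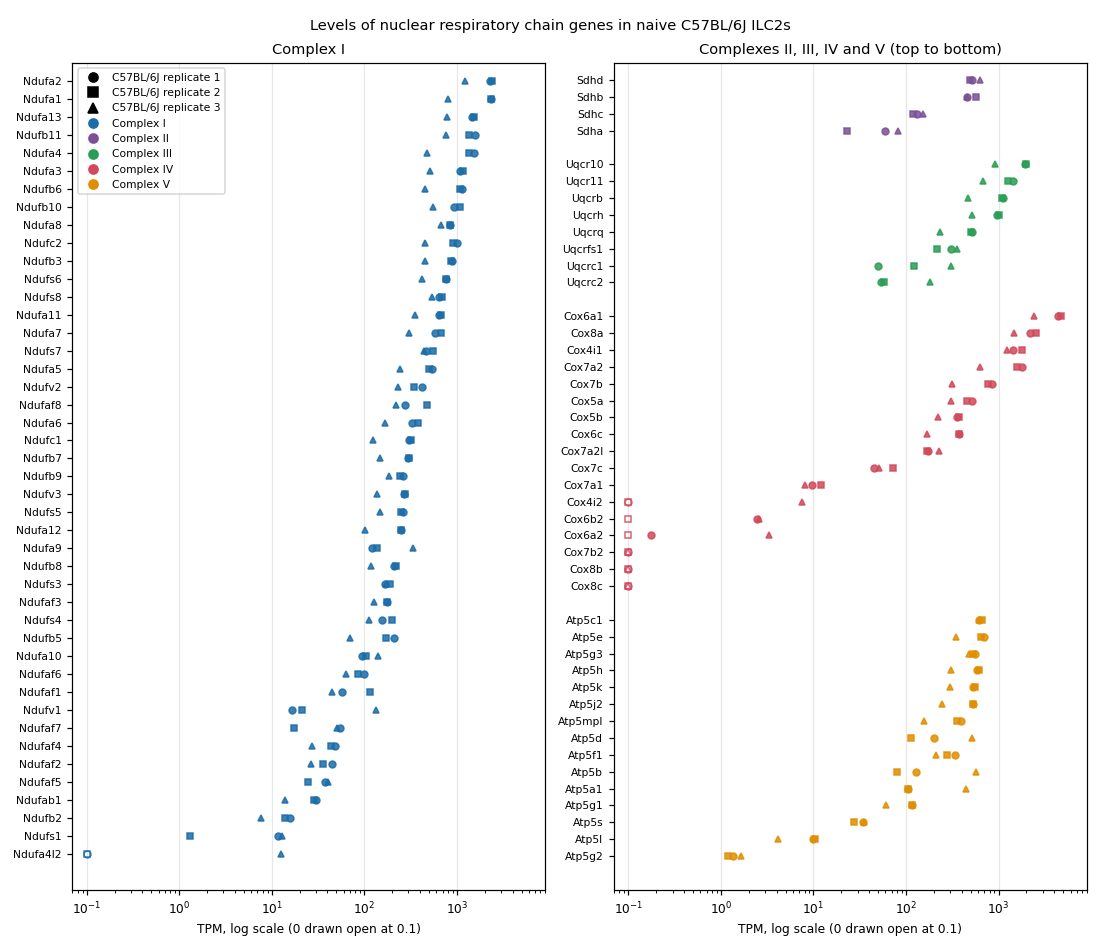
Level of the respiratory chain genes (all but 1 of the 89 are drawn) in the 3 naive C57BL/6J libraries, in TPM on a log axis, grouped by complex and ordered by mean; each symbol is 1 library and an open symbol at the left edge is a library at 0. The highest gene is Cox6a1 (3855 TPM on average), and replicate 3 (triangles) lies below replicates 1 and 2 for 60 of the 89 genes and above both for 22.

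Complex I, the entry point for NADH, was led by Ndufa2 and Ndufa1, small accessory subunits. Ndufa2 was at 2277, 2386 and 1219 TPM in replicates 1 to 3 (1961 ± 645, SD). Ndufa1 reached 2323, 2343 and 798 TPM (1822 ± 886). Both were lowest in replicate 3, and their order did not hold beyond the spread between libraries. The 29 accessory subunits had a median of 449 TPM ± 124 (SD, n = 3). The 7 nuclear core subunits, which carry the flavin and iron-sulfur clusters or form the quinone site, had a median of 176 TPM ± 12.2 and spanned a wide range. Ndufs8 was highest of these at 648, 684 and 544 TPM, ahead of Ndufs7 at 462, 553 and 442 TPM. At the other end Ndufs1, the largest core subunit and a carrier of iron-sulfur clusters, was the lowest structural subunit of the complex by mean, at 11.8, 1.32 and 12.9 TPM. Ndufv1, which binds NADH, was at 16.7, 21.0 and 133 TPM. Both varied widely between libraries. The 8 assembly factors had a median of 55.9 TPM ± 8.38, from 34.2 TPM for Ndufaf5 to 325 TPM for Ndufaf8.

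The median gene of complex II, succinate dehydrogenase, was at 296, 304 and 307 TPM in the 3 libraries. Its membrane anchor Sdhd was at 519, 488 and 634 TPM and its iron-sulfur subunit Sdhb at 461, 566 and 460 TPM. Their ranges overlapped. The catalytic flavoprotein Sdha was lowest in every library, at 60.0, 23.2 and 81.2 TPM.

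In complex III the small subunits Uqcr10 (1951, 1961 and 916 TPM) and Uqcr11 (1426, 1263 and 675 TPM) were highest. Uqcrfs1, the Rieske iron-sulfur protein, had 304, 218 and 359 TPM (294 ± 71.3, SD, n = 3). The core proteins Uqcrc1 and Uqcrc2, large matrix-facing subunits, had the lowest means, with Uqcrc2 at 53.7, 57.6 and 180 TPM. In replicate 3 both core proteins were above replicates 1 and 2 while 5 of the other 6 subunits were below both.

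Complex IV, cytochrome c oxidase, held the 2 highest mean levels of the chain. Cox6a1 was at 4429, 4730 and 2406 TPM (3855 ± 1264) and Cox8a at 2200, 2523 and 1463 TPM (2062 ± 543). Cox4i1, the ubiquitous regulatory subunit, had 1441, 1793 and 1236 TPM (1490 ± 282). In each library Cox6a1 was above Cox8a, and Cox8a above Cox4i1.

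In complex V, Atp5c1, the γ subunit of the rotor shaft, was highest and the steadiest, at 615, 662 and 617 TPM (631 ± 26.2, SD, n = 3). Atp5e, the ε subunit, followed at 693, 643 and 346 TPM, and was the higher of the pair in replicate 1. Catalytic β subunit Atp5b (128, 80.8 and 573 TPM) and α subunit Atp5a1 (104, 105 and 444 TPM) were far below Atp5c1 in replicates 1 and 2 and close to it in replicate 3. The lowest were Atp5g2 (1.34, 1.18 and 1.64 TPM) and Atp5l (9.96, 10.3 and 4.15 TPM). Both values are uncertain, since 35.8% of the 75-base windows of Atp5g2 and 76.0% of those of Atp5l also occur in transcripts of other genes, and how such reads were counted is not stated. Atp5l also has a longest annotated transcript of 6310 bases, and division by a long exon length lowers its level.

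In the complex IV families compared here, the muscle or testis isoform took under 1% of the family's level in naive C57BL/6J ILC2s. Cox6b2 (1.68 TPM on average) could not be compared, since the rule left out its partner Cox6b1. As background, Cox6a2, Cox7a1 and Cox8b are the heart and skeletal muscle forms of complex IV subunits, Cox7b2 and Cox8c are testis forms, and Cox4i2 and Ndufa4l2 are known from lung or from hypoxic cells. Cox8a made up all counts of its family in the 3 libraries (11561, 14198 and 6916 counts). Cox8b and Cox8c had none, and 0 counts allow each a share of up to 0.00918% of the family's counts (3 counts of the family total; counting error only). Cox7b likewise had 8814, 8539 and 2932 counts against 0 for Cox7b2, a limit of 0.0148%. Cox6a1 took 99.95% ± 0.0773 (SD, n = 3) of the COX6A level, with Cox6a2 at 1, 0 and 17 counts.

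Cox7a1 was the muscle isoform with counts in every library. It had 44, 58 and 33 counts, or 9.69, 11.9 and 8.08 TPM, which was 0.697% ± 0.218 of the COX7A level. Its ubiquitous partner Cox7a2 was at 1783, 1593 and 638 TPM, and the related gene Cox7a2l at 171, 169 and 225 TPM. The share of Cox7a2 was 90.8, 89.8 and 73.3% in replicates 1 to 3, and its mean without replicate 3 was 90.3%. Cox7a2 was lower and Cox7a2l higher in replicate 3, and the share of Cox7a2l there (25.8%) was above those in replicates 1 and 2 (8.70 and 9.54%).

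Cox4i2 and Ndufa4l2 had counts only in replicate 3. Cox4i2 had 0, 0 and 45 counts beside 18964, 25266 and 14634 for Cox4i1. Ndufa4l2 had 0, 0 and 104 counts beside 17803, 17013 and 4992 for Ndufa4, a subunit named for complex I and now placed with complex IV. Both minor isoforms thus appeared in the library with the Sftpc, Lyz2, B cell and endothelial counts given above, and not in the other two. For the c ring of the ATP synthase, whose 3 genes encode the same mature protein, Atp5g3 supplied 82.3, 81.7 and 88.5% of the level and Atp5g1 17.5, 18.1 and 11.2%. This split depended on the length used: Atp5g3 had 92.7% with the longest transcript in place of all exons and 70.6% with no length correction.

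**Figure D2:**
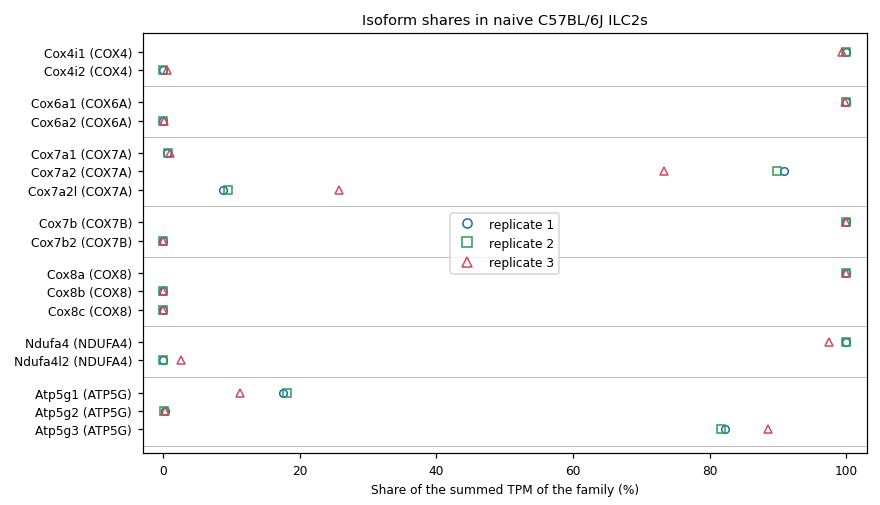
Share of each isoform in the summed TPM of its family, in percent, for the 3 naive C57BL/6J libraries (1 symbol per library). The ubiquitous forms Cox4i1, Cox6a1, Cox7b, Cox8a and Ndufa4 lie at or near 100%, Cox7a2 is lower in replicate 3 (73.3%), and Atp5g3 is the main c ring gene.

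The start regions of 2 such pairs are shown because each pair contrasts a gene with a mean over 1000 TPM with a muscle form at 0 or near 10 TPM. Each is 250 bases before to 50 after the RefSeq gene start (GRCm38.p6), written 5′ to 3′ on the gene's strand, with matches to the searched motifs in capitals. Cox8a is at chr19:7217567-7217866 (minus strand), Cox8b at chr7:140900397-140900696 (minus), Cox7a2 at chr9:79759804-79760103 (minus) and Cox7a1 at chr7:30183921-30184220 (plus).
Cox8a: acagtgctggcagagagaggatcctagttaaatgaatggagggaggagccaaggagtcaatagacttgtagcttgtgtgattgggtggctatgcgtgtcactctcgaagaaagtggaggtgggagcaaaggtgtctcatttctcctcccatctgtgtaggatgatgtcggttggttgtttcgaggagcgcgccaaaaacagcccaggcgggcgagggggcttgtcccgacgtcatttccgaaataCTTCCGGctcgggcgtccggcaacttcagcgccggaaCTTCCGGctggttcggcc
Cox8b: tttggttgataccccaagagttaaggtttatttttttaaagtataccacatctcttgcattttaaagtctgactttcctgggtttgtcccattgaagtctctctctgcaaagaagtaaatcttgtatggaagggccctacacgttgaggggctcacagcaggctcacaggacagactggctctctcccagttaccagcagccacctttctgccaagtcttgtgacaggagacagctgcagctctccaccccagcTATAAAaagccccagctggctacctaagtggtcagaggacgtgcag
Cox7a2: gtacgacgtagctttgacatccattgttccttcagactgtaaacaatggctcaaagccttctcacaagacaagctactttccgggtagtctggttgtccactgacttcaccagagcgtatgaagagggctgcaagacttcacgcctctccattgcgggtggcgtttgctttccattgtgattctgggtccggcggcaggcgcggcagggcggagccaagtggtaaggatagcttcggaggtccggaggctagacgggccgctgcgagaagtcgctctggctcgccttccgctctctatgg
Cox7a1: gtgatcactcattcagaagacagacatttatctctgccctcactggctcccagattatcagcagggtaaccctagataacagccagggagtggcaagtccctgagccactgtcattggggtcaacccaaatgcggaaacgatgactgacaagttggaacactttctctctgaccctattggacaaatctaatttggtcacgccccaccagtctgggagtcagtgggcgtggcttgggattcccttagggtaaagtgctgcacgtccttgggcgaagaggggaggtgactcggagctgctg
The 4 motifs were searched on both strands, and none of them contains another: GCATGCGC for NRF1, CCGGAAG for ETS factors, AAGATGGC for YY1 and TATAAA for the TATA box. The capitals in Cox8a are ETS matches and those in Cox8b a TATA box. No match fell in the Cox7a2 and Cox7a1 windows. Cox8a and Cox7a2 had observed to expected CpG ratios of 0.842 and 0.833, against 0.115 for Cox8b and 0.333 for Cox7a1.

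Of the 89 genes, 70 had an entry in the promoter table. The NRF1 motif was in 12 of these (17.1%), against 3.61% of 17492 protein-coding promoters of the same length. The ETS motif was in 16 (22.9% against 11.9%) and the YY1 motif in 9 (12.9% against 3.22%). These factors are known regulators of respiratory chain genes. At least 1 of these 3 motifs was in 31 of the 70 windows (44.3%), against 17.3% of all, and the median CpG ratio was 0.828 against 0.576. Cox6a1, the highest gene of the chain, had both the NRF1 and the ETS motif, as did Sdhb, Uqcr11, Atp5k and Atp5l. TATA boxes were in 7 windows (10.0%, against 13.3%), among them Cox7b2 and Cox8b. These are descriptions of letters in a fixed window.

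The profile of replicate 3 differed from the others. Replicates 1 and 2 ranked the 89 genes alike (Spearman correlation 0.991), whereas replicate 3 gave 0.894 and 0.885 with them. Relative to the mean of replicates 1 and 2, Ndufv1 was 7.03-fold higher in replicate 3, Atp5b 5.50-fold, Atp5a1 4.25-fold and Uqcrc1 3.60-fold. These encode large catalytic or core subunits, but core subunits did not move together: of the 7 in complex I, 3 were higher than in both other libraries and 3 lower than in both, with Ndufv2 at 0.610 and Ndufs8 at 0.816 of the mean of replicates 1 and 2. Among small subunits, Ndufa1 was at 0.342 and Cox7a2 at 0.378 of that mean. Among members of at least 10 TPM whose longest transcript is at most 1000 bases, 0 of 31 were higher in replicate 3 (median log2 ratio -0.93). The 422 protein-coding genes in that length class had a median of -0.56. From 1000 to 2000 bases, 11 of 29 members were higher (median -0.29), while all such protein-coding genes had a median of 0.75. Above 2000 bases, 6 of 18 were higher (median -0.78), against 0.80 for all. In each of the 3 length classes the members' median ratio was below that of all protein-coding genes. The minimum of 10 TPM was on the mean of all 3 libraries, so genes high mainly in replicate 3 could enter through it. How far this raised the medians of all protein-coding genes was not tested. Cox4i1, Atp5c1 and Uqcrfs1 had ratios of 0.764, 0.967 and 1.38. With 1 such library, no test of this difference is possible.

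**Figure D3:**
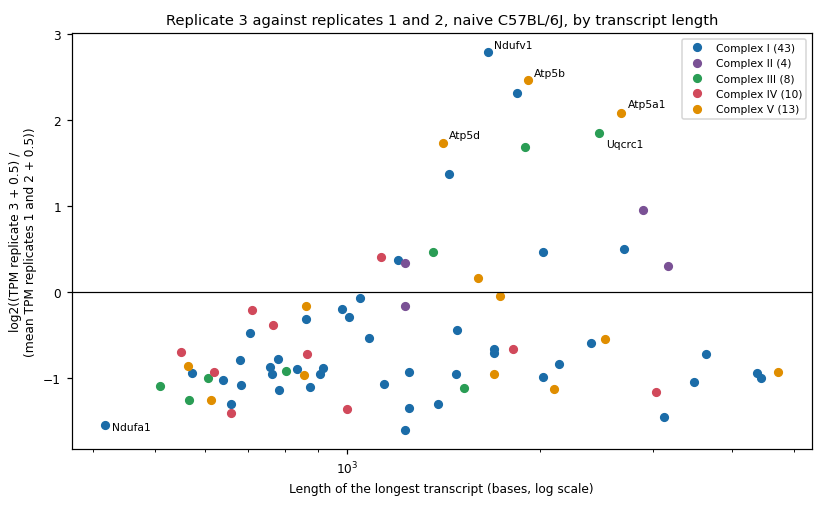
Log2 ratio of the TPM in C57BL/6J replicate 3 to the mean of replicates 1 and 2 (0.5 TPM added to each) against the length of the longest transcript in bases on a log axis, for the 78 genes with a mean of at least 10 TPM, coloured by complex with the number of genes in brackets. All 31 genes of up to 1000 bases lie below 0, and Ndufv1, Atp5b, Atp5a1, Uqcrc1 and Atp5d are among the highest.

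Other genes of oxidative metabolism were mostly lower than the chain itself. The 32 assembly factors of complexes II to V had a median of 18.6 TPM ± 4.86 (SD, n = 3), with 9 above 100 TPM, led by Coa3 (919 TPM) and Cox14 (846 TPM), small factors for complex IV. The 13 TCA cycle genes had medians of 35.3, 27.0 and 79.0 TPM in replicates 1 to 3 (47.1 ± 28.0, and 31.1 without replicate 3), with Mdh2, the malate dehydrogenase, highest at 282 TPM. The 7 measured complex I assembly factors outside the Nduf symbols had medians of 0.924, 1.39 and 11.1 TPM (4.46 ± 5.73, and 1.16 without replicate 3). Both lists were highest in replicate 3. Cyc1, the cytochrome c1 of complex III, was at 65.1, 84.3 and 315 TPM and Cycs, cytochrome c, at 18.9, 8.17 and 10.5 TPM. Cyc1 was higher in replicate 3, as the complex III core proteins were. The 9 regulators of mitochondrial biogenesis had a median of 4.32 TPM ± 0.672, from near 0 for the coactivator Ppargc1a to 20.1 TPM for Tfam, the mitochondrial transcription factor.

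In the CC030 libraries the counts assigned to these genes did not follow the C57BL/6J profile. Over the 89 genes, the Spearman correlation of mean level with C57BL/6J was -0.17 in naive CC030 and between -0.16 and 0.07 in the 4 cultured groups. Counts followed exon length instead, with a correlation of 0.787 between mean count and exonic length in naive CC030, 0.647 to 0.814 in culture and 0.017 in C57BL/6J. The median member was at 15.7 TPM ± 0.689 (SD, n = 3) in naive CC030, close to the median of all protein-coding genes there (14.1 ± 0.447), whereas in C57BL/6J it was 265 TPM against 0.0615. The CC030 reads were aligned to an mm9-based pseudogenome and then carried over to mm10 coordinates, while the C57BL/6J reads were aligned to mm10 directly. The correlation with C57BL/6J over all protein-coding genes of a chromosome was 0.235 on chromosome 16 in naive CC030 and 0.607 to 0.783 in culture. On the other 19 chromosomes it had a median of 0.103 to 0.137, with a maximum of 0.319. CC030 values of genes off chromosome 16, and in naive CC030 those on it, are therefore given here as counts assigned to these gene positions. Strain and read placement cannot be told apart.

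Around each gene, the level of the 20 nearest protein-coding genes on either side was compared with C57BL/6J in the same way. In vehicle day 6 this local correlation was 0.890 at Ndufv1 and 0.811 at Ndufs8, both near the start of chromosome 19 (chr19:4007384-4012806 and chr19:3908863-3912774). The excluded genes on chromosome 16 had 0.704 to 0.922. Only 6 of the 89 members exceeded 0.5 in that group, the others being Atp5e (0.59), Ndufa2 (0.57), Ndufs3 (0.52) and Ndufs1 (0.51). The median over the 89 was 0.101, and it was 0.0117 in naive CC030, where Ndufv1 (0.01) and Ndufs8 (0.11) were low too.

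**Figure D4:**
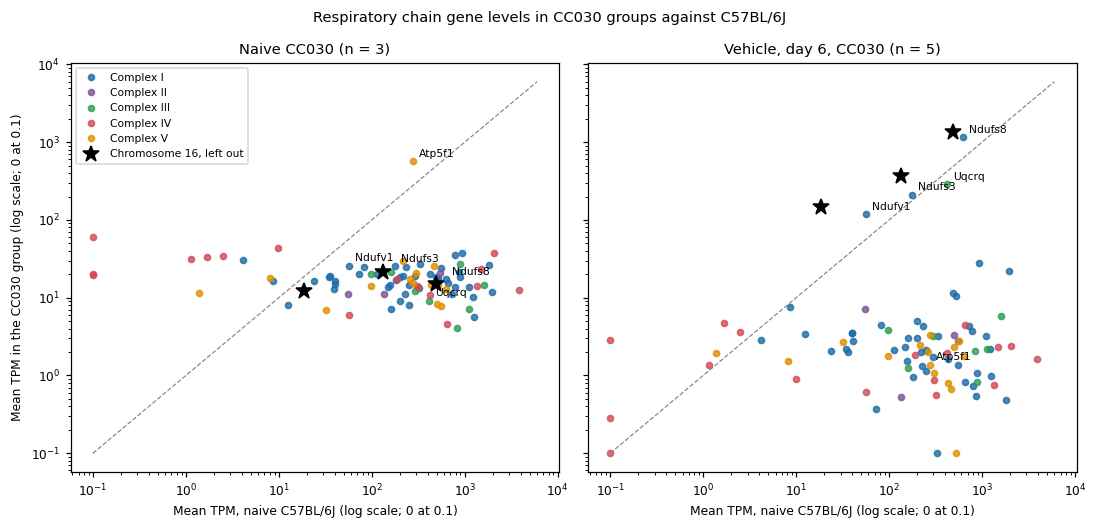
Mean TPM of the 89 genes in naive CC030 (left, n = 3) and in vehicle day 6 (right, n = 5) against naive C57BL/6J (n = 3), log axes with 0 drawn at 0.1, coloured by complex; the dashed line is equality and stars are the 3 detected respiratory genes on chromosome 16. In naive CC030 almost all genes lie in a flat band around the median of 15.7 TPM, and in vehicle day 6 only Ndufs8, Uqcrq, Ndufs3 and Ndufv1 exceed 100 TPM, beside the chromosome 16 genes at 146 to 1359 TPM.

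Between naive CC030 and naive C57BL/6J, 77 of the 89 members were lower in CC030 and 5 were higher (edgeR quasi-likelihood test, adjusted p under 0.05). Of all 35551 genes tested, 12.2% were lower and 64.1% higher (76.3% in all). The members' median log2 fold change was -5.66, beside 7.03 over all genes and 3.06 over the 19893 protein-coding genes tested. Using DESeq2 size factors raised the members' fold changes by a median of 0.55. Their share of gene counts was 0.488, 0.137 and 0.145% in the 3 naive CC030 libraries, below each C57BL/6J library (exact permutation test, two-sided p = 0.10, the smallest that 3 against 3 allows). By complex, 43 of 45 members of complex I, all 4 of complex II, all 8 of complex III, 10 of 17 of complex IV and 12 of 15 of complex V were lower. These counts carry the limit on gene positions given above.

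The smallest p-values belonged to Uqcrfs1, Atp5c1 and Cox4i1. Uqcrfs1 was at 260, 187 and 246 CPM in C57BL/6J and 7.55 to 9.18 CPM in naive CC030 (log2 fold change -6.00 ± 0.41, SE, edgeR adjusted p = 0.000446). Atp5c1 was at 737, 796 and 590 CPM against 9.06, 10.0 and 17.1 CPM (-7.09 ± 0.51, adjusted p = 0.000446). Cox4i1 was at 1401, 1752 and 961 CPM against 22.6, 16.7 and 13.8 CPM (-7.51 ± 0.55, adjusted p = 0.000446). The groups did not overlap for any of the 3. The chromosome 16 gene Atp5j, an F6 coupling subunit of the ATP synthase, was also lower, by a log2 fold change of -6.61 ± 0.67. In naive CC030 its chromosome had a correlation of 0.235 with C57BL/6J. The 3 detected respiratory genes there were at 12.4 to 21.6 TPM. The limit on gene positions therefore applies to Atp5j as well.

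The 5 members called higher in CC030 were the 5 lowest in C57BL/6J by mean TPM. Cox8b, the muscle isoform, had 10, 10 and 27 counts in naive CC030 and 0 in C57BL/6J, at least 50.9-fold higher in CPM against a floor of 3 counts per library. The bound was 25.0-fold for Cox7b2 (5, 10 and 8 counts) and 21.8-fold for Cox8c (5, 3 and 12 counts). Cox6a2 had 21, 6 and 18 counts against 1, 0 and 17 (log2 fold change 3.60 ± 1.24, edgeR adjusted p = 0.0289), and Atp5g2 13, 10 and 18 against 19, 18 and 21 in libraries of far greater depth (1.60 ± 0.49, adjusted p = 0.0178). The median member had 17 to 21 counts in the naive CC030 libraries. The call of Cox6a2 was lost without any one of the CC030 libraries, and that of Atp5g2 without any one C57BL/6J library or CC030 replicate 1 or 3. Over all alternatives their edgeR or DESeq2 adjusted p reached 0.0896 and 0.378. Cox7b2 and Cox8c were under the count filter, and so not tested, without any one C57BL/6J library, as were Cox7b2 without CC030 replicate 2 and Cox8c without CC030 replicate 3. Each passed in the 7 alternatives in which it was tested. With 0 counts in C57BL/6J, Cox7b2, Cox8b and Cox8c could enter a test only through their CC030 counts. Their calls and fold bounds are therefore no separate support for a higher level. Among the members called lower, Ndufb2 lost its call without CC030 replicate 1 or 3 and Ndufv1 without CC030 replicate 2 or 3, with adjusted p up to 0.119 and 0.0697 over all alternatives. Markers of cardiac and skeletal muscle, 5 of 6 of which had no count in any C57BL/6J library, summed to 151 to 185 CPM in naive CC030, and germ cell markers to 60.4 to 87.3 CPM. These lists did not stand out there. Smooth muscle markers summed to 159 to 196 CPM, T cell markers to 124 to 147 and endothelial markers to 88.7 to 185. Red cell markers were lower, at 19.3 to 29.4 CPM. All these sums carry the limit on gene positions given above.

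The other 7 members did not pass the test (Ndufa4l2, Ndufs1, Cox4i2, Cox6b2, Cox7a1, Atp5f1 and Atp5l). One value stood apart among them. Atp5f1, the b subunit of the peripheral stalk, had 4488 counts in naive CC030 replicate 1 against 10 and 23 in replicates 2 and 3, and 11764, 10405 and 6624 in C57BL/6J. Without replicate 1 of CC030 it was lower (edgeR adjusted p = 0.00259). That library's share of counts in complex V genes was 0.365%, against 0.0285 and 0.0338% in the other two.

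In culture, few of these genes had enough counts to test. In every library of a group, 10 counts were reached by 16 members in vehicle day 2, 3 in AR420626 day 2, 10 in vehicle day 6 and 6 in AR420626 day 6. Together they took 0.0586 to 0.133% of gene counts in vehicle day 2 and 0.195 to 0.211% in vehicle day 6, while mitochondrially encoded genes took 15.5 to 56.6% and 7.03 to 11.9%. The share of the nuclear genes was higher at day 6 in 5 of 5 mice (means 0.0924 and 0.202%, exact sign permutation test, two-sided p = 0.0625, the smallest that 5 pairs allow). With mitochondrially encoded counts left out of the total, the share was 0.135 to 0.157% at day 2 and 0.215 to 0.227% at day 6. Complex I genes accounted for most of the share of all gene counts at day 6. They had 0.0331 to 0.0774% at day 2 and 0.156 to 0.160% at day 6. The mean share of complex III rose as well, from 0.00699 to 0.0341%. The mean fell from 0.00486 to 0.00259% for complex II, 0.00831 to 0.00217% for complex IV and 0.01697 to 0.00442% for complex V. In mouse 5 the shares of complexes II, IV and V were instead higher at day 6. Most of the complex I share at day 6 came from Ndufs8, Ndufs3 and Ndufv1, and most of the complex III share from Uqcrq (CPM values below). The higher summed share was thus carried by these genes. It was not a rise across the whole of complex I or complex III, and it was not shared by all complexes.

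Between vehicle day 6 and vehicle day 2, 5 of 29 members tested were higher at day 6 and none was lower (edgeR with mouse as block; 7 had an unadjusted p under 0.05). DESeq2 called 1 lower, Atp5f1, whose edgeR log2 fold change was -1.71 ± 0.73 (adjusted p = 0.112). Of the 15819 genes tested, 13.6% were higher and 3.73% lower. The median log2 fold change was -0.303 over the 29 members and -0.3345 over all genes tested. Of the 5, 4 are complex I subunits and Uqcrq belongs to complex III. Without the mouse as block 1 of the 5 passed, and leaving out single mice gave 1 (without mouse 3 or mouse 4), 2 (without mouse 1), 3 (without mouse 2) or 8 (without mouse 5) higher members.

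Uqcrq, a small subunit of complex III, was at 86.2, 2.73, 5.27, 3.93 and 4.51 CPM in mice 1 to 5 at day 2 and 287, 320, 352, 352 and 308 CPM at day 6 (log2 fold change 6.26 ± 1.18, SE, edgeR adjusted p = 0.00186). All 5 mice were higher at day 6 and the groups did not overlap. It passed in all 11 alternatives run for it, with adjusted p up to 0.0199. Its local correlation with C57BL/6J was 0.0101 at day 6.

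Ndufs8, a core iron-sulfur subunit, was at 205, 6.63, 12.3, 20.4 and 99.6 CPM at day 2 and 855, 887, 922, 1004 and 903 CPM at day 6 (5.92 ± 1.47, edgeR adjusted p = 0.0103). Ndufs3, another core subunit, was at 26.0, 10.9, 14.0, 9.43 and 135 CPM and then 312, 268, 248, 257 and 327 CPM (4.89 ± 1.26, adjusted p = 0.0123). Ndufv1, the NADH-binding subunit, was at 75.4, 8.97, 23.7, 23.6 and 161 CPM and then 201, 173, 180, 211 and 184 CPM (3.59 ± 1.17, adjusted p = 0.0413). For all 3 the day 2 libraries were spread widely, with mouse 5 high, and mouse 1 as well for Ndufs8 and Ndufv1, and the day 6 libraries lay close together. Ndufa3, an accessory subunit, had 9, 16, 13, 7 and 51 counts at day 2 and 44, 36, 14, 41 and 31 at day 6 (1.95 ± 0.59, adjusted p = 0.0295). Without the block these 4 did not pass. The 10 ILC2 markers summed to 105 to 276 CPM at day 2 and 64.6 to 103 CPM at day 6, and their part in these differences was not tested. Those sums carry the limit on gene positions as well. The chromosome 16 genes Atp5j (6.06 ± 1.41), Atp5o (5.07 ± 1.31) and Ndufb4 (4.87 ± 0.84) were higher at day 6 as well.

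**Figure D5:**
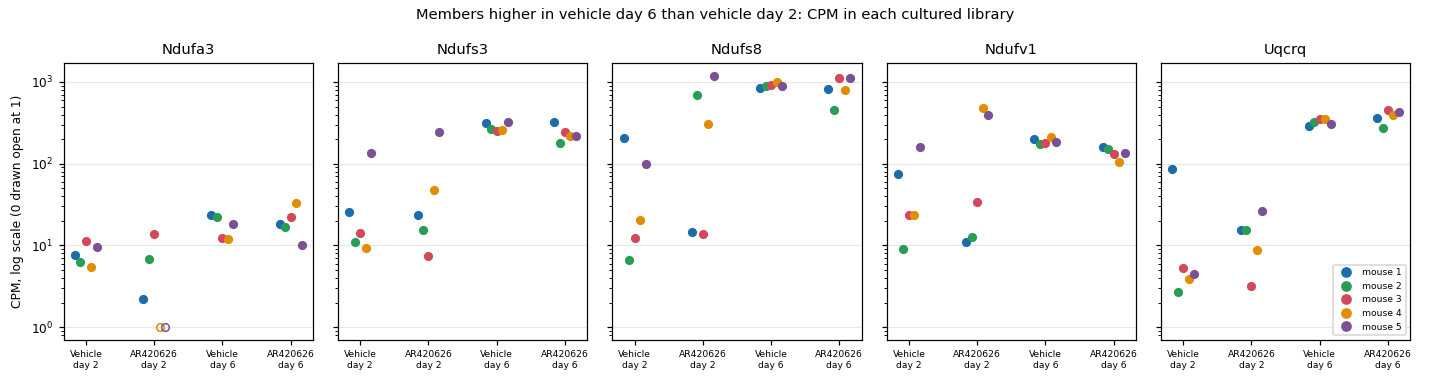
CPM of the 5 members that were higher in vehicle day 6 than in vehicle day 2, in each of the 20 cultured libraries (log axis, 1 colour per mouse, 0 drawn open at 1). Day 6 libraries lie together for Ndufs8 (455 to 1132 CPM) and Uqcrq (273 to 452 CPM), whereas day 2 libraries spread widely, for example from 6.63 to 205 CPM for Ndufs8 with vehicle and from 13.7 to 1196 CPM with AR420626.

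AR420626 against vehicle addressed what the FFAR3 agonist changed. At day 6, 11 members were tested and none passed in edgeR or DESeq2, 2 of them with an unadjusted p under 0.05, while 11.4% of the 9421 genes tested passed (3.3% higher and 8.14% lower). Ndufv1 was at 160, 153, 133, 106 and 136 CPM with AR420626 against 201, 173, 180, 211 and 184 CPM with vehicle (log2 fold change -0.61 ± 0.23, edgeR adjusted p = 0.0844). Sdha, the flavoprotein of complex II, was at 18.3, 19.7, 2.71, 5.01 and 11.1 CPM against 20.1, 20.5, 13.1, 16.4 and 20.8 CPM (-1.02 ± 0.43, adjusted p = 0.130). Both were lower in 5 of 5 mice, Ndufv1 without overlap between the groups. Ndufs8 (-0.28 ± 0.26) and Uqcrq (0.10 ± 0.23) had small differences. The members' share of counts was 0.202% with vehicle and 0.198% with AR420626 (exact sign permutation test, two-sided p = 0.875).

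At day 2, 43 members were tested and none passed in edgeR or DESeq2, and none had an unadjusted p under 0.05; of all 20865 genes none passed (0%) and 403 had an unadjusted p under 0.05. The share of counts was 0.0924% with vehicle and 0.167% with AR420626, higher in 4 of 5 mice (exact sign permutation test, two-sided p = 0.1875). Ndufs8 illustrates the spread: it was at 14.5, 684, 13.7, 303 and 1196 CPM with AR420626, with mice 2, 4 and 5 high, against 205, 6.63, 12.3, 20.4 and 99.6 CPM with vehicle (1.25 ± 1.45, edgeR adjusted p = 1.00). Of the 48 members tested for a difference in the AR420626 effect between days, none passed in edgeR or DESeq2 and 1 had an unadjusted p under 0.05 (Atp5f1). Over 23141 genes 0.0519% passed (0.0389% higher and 0.013% lower).

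Genes of the surrounding pathways were listed with earlier results known. Between the naive strains, 17 of 31 tested assembly factors of complexes II to V were lower and 2 higher (median log2 fold change -2.49), and 10 of 13 TCA cycle genes were lower and 0 higher (median -3.11). Of the 9 biogenesis regulators 3 were higher and 1 lower, of the 7 complex I assembly factors outside the Nduf symbols 1 was higher and 1 lower, and of the 2 cytochromes Cyc1 was lower. As for the members, these are counts at gene positions mostly off chromosome 16. From vehicle day 2 to day 6, 5 of 21 assembly factors were higher (among them Sdhaf4, 6.80 ± 1.28, and Cox14, 3.84 ± 0.61) and 3 of 12 TCA cycle genes, with 1 TCA cycle gene lower, while of 8 biogenesis regulators 1 was higher and 1 lower. With AR420626 at day 6, 1 of 12 assembly factors passed, Atpaf1, a chaperone for the ATP synthase head (1.48 ± 0.32, higher), and 0 of 7 TCA cycle genes and 0 of 6 biogenesis regulators.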

How the data were processed

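ILC2 RNA was amplified with SMART-Seq v4 and sequenced on a NovaSeq. The authors deposited raw read counts per gene: reads were trimmed with fastp 1.0.1, checked with FastQC 0.12.1, aligned with STAR 2.7.11b (C57BL/6J to mm10, CC030 to an mm9 pseudogenome moved to mm10 with lapels 1.1.1) and counted with HTSeq 2.0.5. The gene annotation used for counting was not given in the sources used here. Lengths and gene types came from GENCODE vM21 (GRCm38), and 55141 of 55401 identifiers matched. TPM was computed here from counts and summed exon length over these identifiers, and CPM over all gene counts. Rows of unassigned reads stayed out of totals. In culture 2.06 to 11.1% of the reads tallied were in genes.

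Contrasts used edgeR 4.0.16 quasi-likelihood fits on TMM-scaled counts after filterByExpr (10 counts), with Benjamini-Hochberg adjustment over all genes. Paired contrasts held the mouse as a block, since the labels tie libraries to mice; correlations of same-mouse deviations ranged from -0.33 to 0.32. DESeq2 1.42.0, other scalings and filters, and leaving out each library were alternatives. The fits were tested on simulated counts. Per the study's methods, each naive library came from a separate mouse. Genes, lists and tests were chosen with earlier results of these data known. Named genes were the 3 marker genes, all isoform family members, the 2 highest and the lowest structural subunits of each complex, and called members by p-value, all of them where 5 or fewer were called in a direction. Ndufb2, Ndufs7, Ndufs8, Ndufv1, Atp5a1, Atp5b, Uqcrc1, Atp5f1, Sdha, Ndufaf5 and Ndufaf8 were named after their values were seen. For 1 member, individual values are not reported here.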

Additional observations from a re-analysis of the deposited data

Results flagged for a closer look

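In the 24 checks of a group of 5 cultured libraries (the members' share of counts and the CPM of the 5 genes higher at vehicle day 6), 3 had 1 library far from the rest, where chance gives about 1 in 20. In vehicle day 2, Ndufs3 was at 135 CPM in mouse 5 against a group median of 14.0 CPM. In the same group Uqcrq was at 86.2 CPM in mouse 1 against a median of 4.51 CPM. In AR420626 day 2, Ndufs3 was at 244 CPM in mouse 5 against a median of 23.5 CPM.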

How the results depend on the processing

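In naive C57BL/6J the share of gene counts stayed within 1 SD of 3.16% under other denominators, and leaving out each library gave 2.88 to 3.70%. Median levels moved with the genes and lengths used: structural subunits only gave 325 TPM for complex I and 178 for complex IV, the longest transcript gave 276 TPM for complex II, 173 for complex IV and 366 for complex V, and a minimum of 10 counts gave 424 TPM for complex IV. The share of Atp5g3 was 92.7% with the longest transcript and 70.6% with counts alone.

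Between naive strains, a minimum of 10 counts in every library left 2 higher and 47 lower members of 55 tested, and leaving out 1 library gave 2 to 4 higher. From vehicle day 2 to day 6, that minimum gave 3 higher of 4 tested, no replicate block gave 1, and DESeq2 gave 1 lower, while leaving out 1 mouse gave 1 to 8 higher. The counts for AR420626 at day 6, at day 2 and for the difference between days stayed at 0 in each alternative run. Blocking the naive strains by replicate number, which pairs nothing by design, gave 4 higher and 76 lower. Depth limits the cultured comparisons: the shallowest library had 227445 counts.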
